A study of Gallus gallus with 26 samples.

Results

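The 3 RNA libraries richest in the globin transcript *HBA1*, named here blood-rich, were set beside the other 3, named blood-poor. They are 3 of the 6 RNA libraries in a series of 26 samples, and the rule that chose them was an *HBA1* level of at least 20000 normalized counts (reads on a gene divided by one scaling factor per library). Interzone 1, interzone 3 and phalange 1 met the rule, and interzone 2, phalange 2 and phalange 3 did not, so each set holds both tissues. The study asked how the joint interzone differs from the neighboring phalange. All 6 libraries came from hindlimb digit 3 of White Leghorn chick embryos after 7.5 days of incubation, at stage HH32 of the Hamburger-Hamilton series. The interzone, or the proximal part of the phalange beside it, was cut out after soft tissue was removed from the digit. Poly(A) RNA was then turned into Smart-seq2 libraries, and no treatment or genetic change was applied. The number of embryos behind each RNA library was not named in the sources used here. Of 15984 genes in the table, the 11928 with a mean of at least 10 normalized counts are described.

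The interzone is the band of flattened cells that forms where a joint will open, and the phalange beside it is cartilage that will later be replaced by bone. Globins are the main products of red blood cells, which in birds keep their nucleus and circulate inside vessels lined by endothelium. Precursors of skeletal muscle, which lies around the digit skeleton, are set apart by the transcription factors *MYOD1* and *MYOG*. Which cells gave the globin and muscle reads was not tested.

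The libraries were chosen on *HBA1*, so what follows for the sets describes these 6 libraries and carries no test. A gene is said not to overlap where its 3 blood-rich values all lie on one side of its 3 blood-poor values. Over all 11928 genes, 6.95% lay above in this way and 5.84% below, and these shares stand beside each count given below. Differences between sets are means of log2(normalized count + 1) in the blood-rich minus the blood-poor libraries. A member measured at a low mean can pass the filter only through the set in which it is high. In bulk RNA, fewer cells of a type and less RNA per cell cannot be told apart.

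The libraries were of like depth, with 12431285 to 14347148 reads on genes and 12615 to 14418 genes with at least 1 read. Genes with a mean of at least 10 but no read numbered 141 in interzone 1, 652 in interzone 3 and 557 in phalange 1. They numbered 720 in interzone 2, 834 in phalange 2 and 372 in phalange 3. Whether a gene without a read was absent from a library or missed was not tested. The tissue labels fit *GDF5*, a growth factor of the interzone, which stood at 12167 to 43350 in interzone and 2925 to 4628 in phalange. The sum of 13 genes on chromosome W, which only hens carry, was 31.3 in interzone 1 and 29.9 in phalange 1, against 6585 to 8378 in the other 4 libraries. Both libraries almost without W-linked reads are blood-rich, so between these 2 and the blood-poor set the sex of the embryos and the blood set cannot be told apart. Interzone 3 is blood-rich with a W-linked sum of 6705.

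*HBA1*, the adult-type α-globin, was at 22971 normalized counts in interzone 1, 38711 in interzone 3 and 29931 in phalange 1. It was at 1034 in interzone 2, 512 in phalange 2 and 6232 in phalange 3. The last library inside the rule therefore lay 3.69-fold above the first one outside it, and the whole range was 75.6-fold. Phalange 3 was not free of globin but stood between the sets.

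The other 5 globin genes in the table, like *HBA1* on which the rule rests, showed no overlap between sets. Their median difference was 4.53. *HBAD*, the other α-type chain of late embryonic and adult blood, was at 9404, 11333 and 8521 in interzone 1, interzone 3 and phalange 1, against 408, 168 and 1850 in interzone 2, phalange 2 and phalange 3. *HBE*, of the β-globin cluster, ran from 419 to 574 in the blood-rich libraries and from 8.39 to 58.4 in the blood-poor ones. *HBE1*, of the same cluster, ran from 296 to 387 and from 6.29 to 37.3. *HBBR*, another β-type chain, ran from 529 to 1266 and from 6.19 to 164. *HBZ*, the embryonic α-type chain, was at 155, 185 and 21.0 in the blood-rich libraries and at most 11.5 in the others. With a blood-poor mean of 3.83, *HBZ* passed the filter only through the blood-rich set. Genes of 2 chromosomes thus went together, since in the GRCg7b assembly of RefSeq *HBA1*, *HBAD* and *HBZ* lie on chromosome 14 and *HBE*, *HBE1* and *HBBR* on chromosome 1. The β-globin genes are near copies of one another, as are the α-type genes, so reads may be shared among them.

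The ratio of *HBA1* to *HBAD*, read only across libraries, stayed between 2.44 and 3.51 while *HBA1* itself ranged 75.6-fold. The ratios to *HBE* and *HBE1* varied more, from 40.0 to 107 and from 43.6 to 167. Globin reads were 0.269%, 0.411% and 0.317% of all reads on genes in the blood-rich libraries and 0.0107%, 0.00553% and 0.0631% in interzone 2, phalange 2 and phalange 3. With globin reads left out of the scaling, 93 of the 96 named genes that did not overlap still did not. Many of these genes were chosen for a wide gap.

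**Figure D1:**
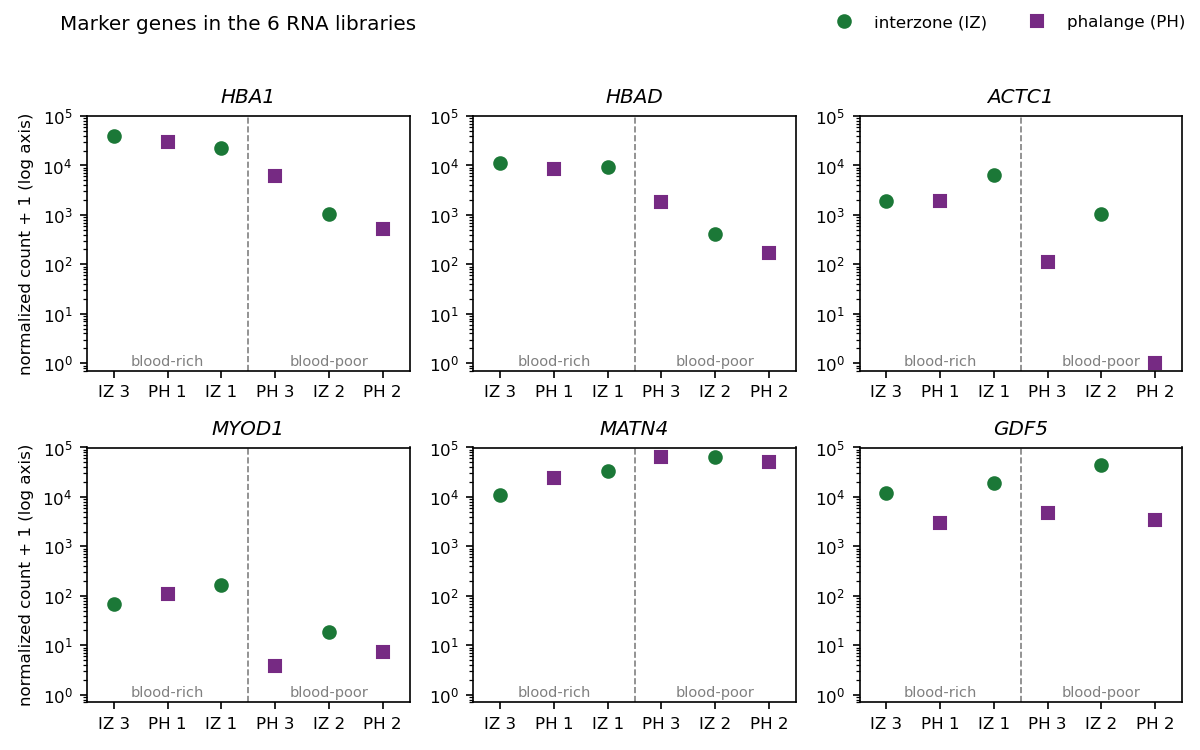
Normalized counts plus 1 (log axis) of 6 genes in each RNA library, ordered by HBA1 within each set, with circles for interzone (IZ), squares for phalange (PH) and a dashed line between the blood-rich and blood-poor libraries. HBA1, HBAD and ACTC1 lie higher left of the line, MYOD1 too, MATN4 lies lower there, and GDF5 divides the libraries by tissue.

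Genes of the red cell other than globins followed less uniformly. Of 20 measured erythroid genes, 5 lay above without overlap and 1 lay below, where 6.95% of all 11928 genes lay above and 5.84% below in this split. The list's median difference was 0.51, beside 0.02 over all genes, and it was 0.18 within interzone and 0.79 within phalange. Without phalange 2 it was 0.25. The genes that stood apart encode the membrane skeleton and heme enzymes. Those of the membrane skeleton, *SPTB*, *EPB42* and *ANK1*, had blood-poor means of 3.51, 4.94 and 0, under the filter of 10. They passed it only through the blood-rich set, so the direction of their means was given by the filter. *SPTB*, β-spectrin, was at 90.3, 96.9 and 168 in interzone 1, interzone 3 and phalange 1, at 0 in interzone 2 and phalange 2, and at 10.5 in phalange 3. *EPB42*, which ties the membrane to its skeleton, was at 90.3, 32 and 188 against 0, 5.24 and 9.57. *ANK1*, the red cell ankyrin, was at 5.36, 36.7 and 61.9 and at 0 in all 3 blood-poor libraries, which makes the blood-rich mean at least 11.0-fold higher. A count of 0 allows up to 3 reads in a library, or 2.68 to 3.15 normalized counts, and covers counting error only.

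Enzymes of heme synthesis were among them. *FECH*, which puts iron into heme, was at 236 to 320 in the blood-rich and 18.6 to 202 in the blood-poor libraries. *ALAD*, an early enzyme of the pathway, was at 154 to 199.5 against 87.8 to 91.2. The transferrin receptor *TFRC*, which takes up iron in every dividing cell, was lower in the blood-rich libraries, at 888 to 1313 against 1449 to 1657. *XPO7*, a nuclear exporter abundant in red cell precursors, overlapped at 1176 to 1589 and 924 to 1342. *SLC4A1*, the anion exchanger of the red cell, named after its values were seen, was at 26.8, 62.1 and 131 in the blood-rich libraries, at 51.7 in phalange 3 and at 0 in interzone 2 and phalange 2.

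Endothelial genes were higher in the blood-rich libraries as a list, though not in every pair of libraries. Against phalange 3 the median was -0.01 in interzone 1 (7 of 15 genes higher), 0.08 in interzone 3 (9) and 1.08 in phalange 1 (12). Of 15 measured, 4 lay above without overlap and 0 below, 13 had a positive difference where 51.6% of all genes did, and the median was 1.24, or 1.71 within interzone and 2.63 within phalange. Leaving out 1 library gave 1.32 to 2.27, the highest without phalange 3, with 2.16 without interzone 3 and 1.89 without interzone 1. *CD34*, a surface protein of vessels and blood progenitors, was at 188, 248 and 259 in interzone 1, interzone 3 and phalange 1. It was at 36.1 in interzone 2, 0 in phalange 2 and 152 in phalange 3. Phalange 3, the richest in globin of the blood-poor set, was again the highest of that set. *ECSCR*, a regulator of endothelial movement, was at 101 to 149 against 0, 0 and 46.0, with phalange 3 again the highest of the blood-poor set. *PLXND1*, the semaphorin receptor of vessels, was at 135 to 207 against 19.6, 18.9 and 127. *TEK*, the angiopoietin receptor, was at 253 in phalange 1 but only 17.9 and 16.9 in interzone 1 and interzone 3, close to the 15.3 of phalange 3. With a blood-poor mean of 5.11, *TEK* passed the filter only through the blood-rich set. *PECAM1*, which joins endothelial cells, overlapped, at 151 to 315 and 61.9 to 169. *KDR* and *SOX18*, named after their values were seen, overlapped with negative differences of -0.77 and -0.03. Both were highest in phalange 3, at 106 and 126.

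White blood cell and thrombocyte genes were less clear, with medians of 0.70 and 0.18. Leaving out 1 library moved the first from 0.04 (without interzone 2) to 1.12 (without interzone 3) and the second from -0.22 (without phalange 1) to 0.82 (without interzone 3). Of 16 macrophage and white blood cell genes, 2 lay above without overlap, namely *CD74*, the invariant chain of antigen presentation, at 609 to 935 against 229 to 388, and the lysosomal protease *CTSS*, at 288 to 481 against 72.3 to 284. The macrophage receptor *CSF1R* went its own way, at 533 normalized counts, 0 and 520 in interzone 1, interzone 3 and phalange 1 and at 549, 537 and 171 in interzone 2, phalange 2 and phalange 3. In the thrombocyte list 1 of 9 genes lay above without overlap, *VWF*, at 44.7, 16.0 and 12.98 against 0, 11.5 and 12.4, a narrow gap. With a blood-poor mean of 7.99, *VWF* passed the filter only through the blood-rich set. Over all genes 6.95% lay above, so counts this small say little about either list.

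Muscle genes moved with the blood set, though not in proportion to globin. *MYOD1*, which commits cells to muscle, was at 164, 68.7 and 107 in interzone 1, interzone 3 and phalange 1, and at 17.6, 6.29 and 2.87 in interzone 2, phalange 2 and phalange 3. *ACTC1*, the α-actin of embryonic muscle, was at 6394, 1945 and 1868 against 1066, 0 and 110. *MYOD1* and *ACTC1* did not overlap, but their order within the sets was not that of *HBA1*: interzone 1, the lowest of the blood-rich set in *HBA1*, was the highest in both. For each 100 normalized counts of *HBA1* there were 27.8 of *ACTC1* in interzone 1, 5.03 in interzone 3 and 6.24 in phalange 1, and 103, 0 and 1.77 in interzone 2, phalange 2 and phalange 3.

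The myogenic list had 14 measured genes, 5 above without overlap and 0 below, with a median of 3.07. However, 6 of the 14 were at 0 in every blood-poor library and passed the filter only through the blood-rich set, so their direction was given by the filter. With those set at 3 reads the median was 1.81. *MYOD1* and *PAX7*, with blood-poor means of 8.91 and 9.89, also passed the filter only through the blood-rich set. In both tissues, 9 of the 14 had a positive difference, where 27.6% of all genes did. *MYOG*, which drives myoblasts to differentiate, was at 128, 14.1 and 103.8 in interzone 1, interzone 3 and phalange 1 and at 0 in the other 3, so the blood-rich mean was at least 26.0-fold higher. *PAX7*, of muscle stem cells, was at 35.7, 64.9 and 97.8 against 0, 0 and 29.7. *CHRND*, a subunit of the acetylcholine receptor at the nerve-muscle junction, was at 19.8 to 53.9 against 0 throughout. *MEF2C*, which other tissues also use, overlapped, at 160 to 294 and 11.5 to 191.

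Of 39 measured genes of the sarcomere and muscle metabolism, 15 lay above without overlap and 0 below, with a median of 2.69. Among those above, *TMOD1*, *ACTN2* and *MYH1G* had blood-poor means of 3.77, 8.56 and 0.638, under the filter of 10. They passed it only through the blood-rich set, so the direction of their means was given by the filter. The same held for some genes that overlapped, such as *UNC45B* and *MYBPC3*, with blood-poor means of 0 and 4.47. *ACTN2*, the actin anchor of the Z-disc, was at 438, 258 and 66.9 in the blood-rich libraries and at 3.83 to 11.4 in the others. The fast troponin C *TNNC2* was at 672 to 1083 against 289 in interzone 2, 132 in phalange 2 and 37.3 in phalange 3. The slow troponins *TNNC1* and *TNNI1* stood at 376 to 420 and 371 to 535 in the blood-rich libraries, and both were highest in interzone 2 among the blood-poor ones, at 157 and 154. Not all contractile genes separated: *MYL1*, a fast myosin light chain named after its values were seen, overlapped at 1064, 953 and 249.6 against 352, 25.2 and 14.4. *MYH15* and *MYH1G*, myosin heavy chains, were also above without overlap, at 51.9 to 111 and 6.59 to 113 against at most 22.7 and 1.91. Whether reads were shared among myosin heavy chain genes was not tested. *TPM2*, a tropomyosin also made outside muscle, was separated narrowly, at 6118 to 8587 against 3979 to 5880, and *ACTA1*, the actin of mature muscle, overlapped at 524 to 1266 and 439 to 676.

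Sarcomere genes also had higher values in interzone, without a call in the main test. With phalange 1 left out, limma called *MYL1* higher in interzone, with a log2FC of 5.15 and an adjusted p of 0.0482. The median of the sarcomere list was 1.33 for the blood-rich minus the blood-poor libraries of the interzone and 2.94 for those of the phalange. Taken the other way, it was higher in interzone than in phalange by 0.53 among blood-rich libraries and by 2.50 among blood-poor ones. In the limma test between tissues 11 of the 39 genes were higher in interzone at an unadjusted p under 0.05 and 1 was higher in phalange, but 0 were called after adjustment over all genes, the smallest adjusted p being 0.263. Of the 14 myogenic genes 0 had an unadjusted p under 0.05 in limma. *ACTC1* had a log2FC of 5.32 (SE 2.23) between tissues, with a limma adjusted p of 0.742. Among the blood-poor libraries, interzone 2 was the highest in *ACTC1* and *MYOD1* and phalange 3 the highest in *HBA1*.

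**Figure D2:**
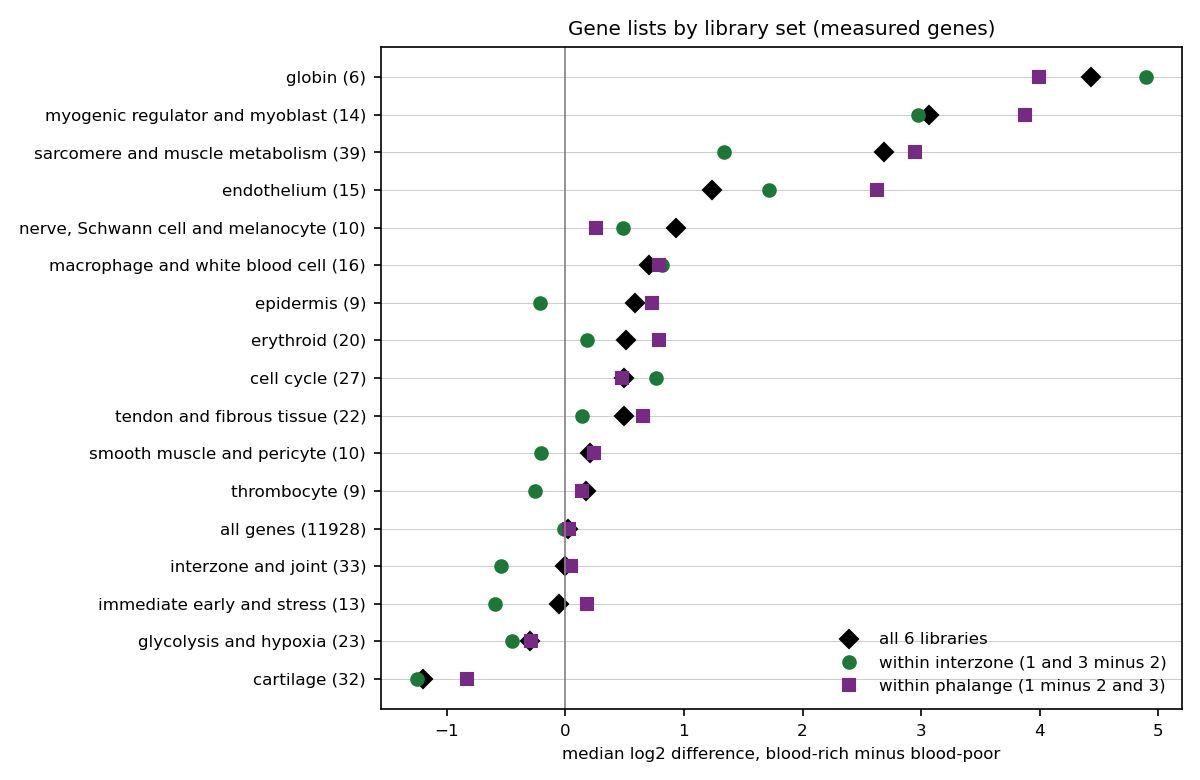
Median log2 difference, blood-rich minus blood-poor libraries, of each gene list (number of measured genes in brackets), for all 6 libraries (diamonds), within interzone (circles) and within phalange (squares), with a line at 0. Globin, muscle and endothelial lists lie above 1 in all 3 readings, and cartilage is the only list with a median below -1.

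The connective tissue around the skeleton was represented unevenly. Of 22 tendon and fibrous tissue genes, 4 lay above without overlap and 0 below, with a median of 0.50 that was 0.13 without phalange 2. *SCX*, the transcription factor of tendon precursors, was at 117, 187 and 131 in interzone 1, interzone 3 and phalange 1 and at 70.2, 25.2 and 6.70 in interzone 2, phalange 2 and phalange 3. *PRRX1*, of limb mesenchyme, was at 1226 to 2173 against 311 to 363. *COL12A1*, a collagen on the surface of collagen I fibrils, was at 1445 to 4655 against 635 to 854. The gaps of *PRRX1* and *COL12A1* were wide, while *COL1A2*, of collagen I itself, was separated narrowly, at 55450 to 76886 against 44357 to 50664. *DCN*, a proteoglycan of fibrils, overlapped and had a negative difference of -0.61. *FMOD*, a proteoglycan of tendon named after its values were seen, also went against the list, at 148, 0 and 0 in the blood-rich libraries and 220, 188 and 40.2 in interzone 2, phalange 2 and phalange 3.

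Small lists of other lineages held single genes that did not overlap. Over all genes 6.95% lay above and 5.84% below, so counts this small say little about these lists. The smooth muscle and pericyte list had a median of 0.20 with 1 of 10 genes above without overlap, and the nerve, Schwann cell and melanocyte list a median of 0.94 with 2 of 10. Leaving out 1 library moved the first from -0.05 (without phalange 3) to 0.37 (without phalange 1) and the second from 0.19 (without phalange 2) to 1.65 (without phalange 3). *ACTA2*, smooth muscle actin, was at 617, 411 and 1224 in the blood-rich libraries and at 0, 57.7 and 120 in interzone 2, phalange 2 and phalange 3. Other contractile genes of the list, named after their values were seen, overlapped with negative differences, *CNN1* at -2.61 and *MYH11* at -1.68. The pericyte genes *CSPG4* and *KCNJ8* overlapped, *CSPG4* at 16.0 to 611 and 437 to 457 and *KCNJ8* at 278 to 600 and 196 to 488. *NGFR*, the nerve growth factor receptor of Schwann cells and mesenchyme, was at 150, 109 and 71.9 against 0 in all 3 blood-poor libraries. Its blood-rich mean was at least 35.1-fold higher, a bound that covers counting error only. It passed the filter only through the blood-rich set, so its direction was given by the filter. The same held for *PMEL*, the other gene of the nerve list above without overlap, with a blood-poor mean of 5.81. *TUBB3*, a tubulin of neurons, overlapped with a difference of -0.65, and *MBP*, which encodes a protein of myelin, was below without overlap, at 53.6, 39.5 and 9.98 against 198, 269.5 and 201. *MBP*, from outside the lists, was named at a mean of at least 100, which it passed only through the blood-poor set. *KRT7*, a keratin of simple epithelia, was at 161 to 261 against 17.2 to 65.0, whereas *CDH1*, the cadherin of epithelia, overlapped at 716 to 740 and 405 to 1243. Epidermal genes did not move as a body: 2 of 9 lay above without overlap, and the median was 0.59 over all libraries, 0.31 without interzone 3, 1.14 without interzone 2 and -0.22 within interzone. *DSP*, the other gene above beside *KRT7*, had a blood-poor mean of 1.03 and passed the filter only through the blood-rich set.

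Cartilage genes were lower in the blood-rich libraries. Of 32 measured, 9 lay below without overlap and 0 above, 27 had a negative difference in both tissues where 26% of all genes did, and the median was -1.20, or -1.25 within interzone and -0.83 within phalange. Leaving out 1 library gave -1.66 (without phalange 1) to -0.79 (without interzone 3). *MATN4*, a matrilin of the cartilage matrix, was at 33023, 10911 and 24339 in interzone 1, interzone 3 and phalange 1 against 65280, 50849 and 63137 in interzone 2, phalange 2 and phalange 3. *COL9A3*, of the collagen that coats cartilage fibrils, was at 7076, 830 and 12369 against 15202, 23107 and 22941. *SOX9*, the transcription factor that sets cartilage fate, was at 4541 to 5401 against 8037 to 12879. Thus a regulator and matrix genes were both lower, and interzone 3 held the lowest *MATN4* and *COL9A3* values of all 6 libraries.

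*FGFR3*, a receptor that restrains chondrocyte division, was at 357 to 918 against 1559 to 3120. *RUNX3*, of maturing chondrocytes, was at 17.9 to 108 against 265 to 392, and the ubiquitin ligase *WWP2*, a target of Sox9 in mouse cartilage, was at 3997 to 8203 against 10249 to 12413. *CYTL1*, a secreted protein of chondrocytes, overlapped, at 8031, 5559 and 26735 in interzone 1, interzone 3 and phalange 1 and at 19182, 39887 and 38565 in the blood-poor libraries. It was lower in the blood-rich libraries within each tissue. *COL9A1*, of the same collagen as *COL9A3*, did not overlap, at 19612, 3241 and 28473 in interzone 1, interzone 3 and phalange 1 and at 32423, 37319 and 35330 in the other 3, with interzone 3 far below the rest. Interzone 3 set the lower end of the list's sum too, at 40362 against 97257 to 247656 in the other libraries.

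**Figure D3:**
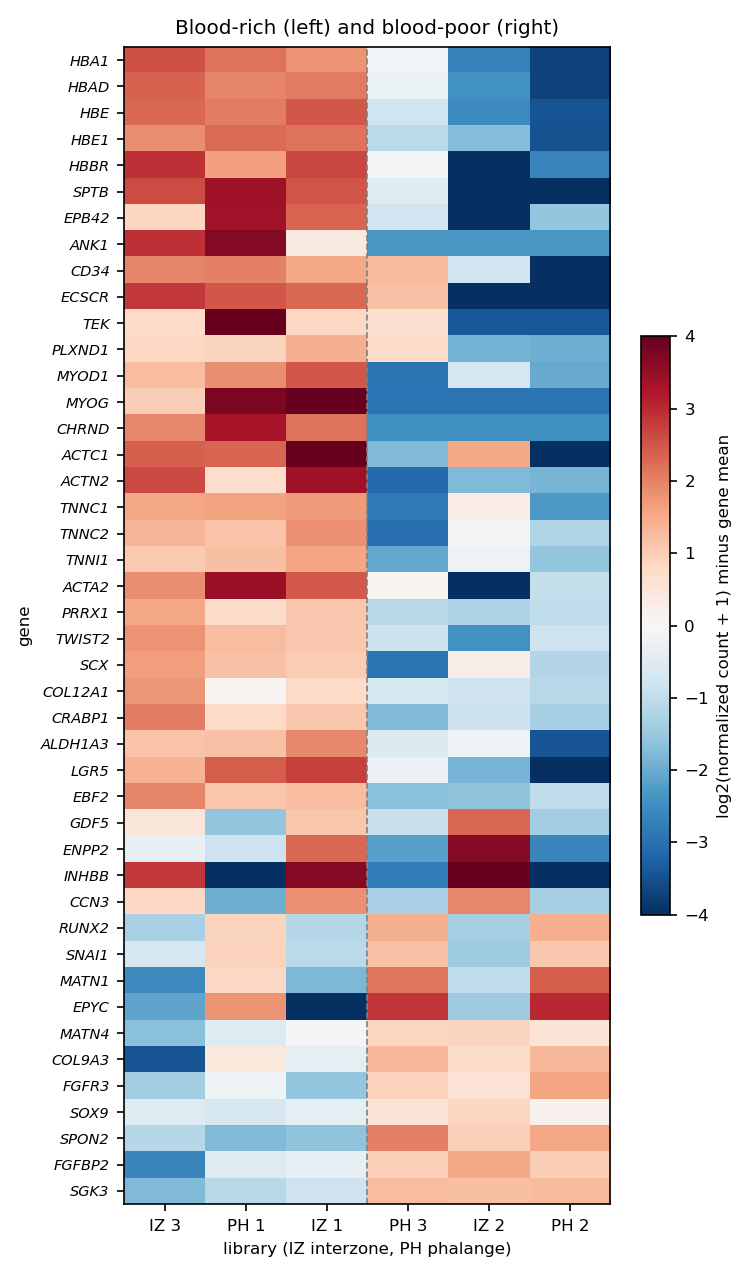
Log2(normalized count + 1) minus the gene's mean over the 6 libraries (color, limited to 4 either way) for 44 named genes in rows and the libraries in columns, blood-rich left of the dashed line. Blood, vessel, muscle and mesenchyme genes in the upper rows are mostly red at left and blue at right, GDF5 to EPYC alternate with tissue, and the rows from MATN4 down are mostly blue at left.

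Joint genes as a list had a median of -0.00 against 0.02 over all genes, with 5 of 33 above without overlap and 2 below. Over all genes 6.95% lay above and 5.84% below, so the count below was near the share of all genes. The tissues differed in this, with medians of -0.54 within interzone and 0.04 within phalange. Against interzone 2 the medians were -0.37 in interzone 1 and -0.77 in interzone 3, those of phalange 1 were 0.38 against phalange 2 and -0.21 against phalange 3, and leaving out 1 library gave -0.35 (without phalange 2) to 0.43 (without interzone 2). *GDF5* itself was at 18746, 12167 and 2925 in interzone 1, interzone 3 and phalange 1 and at 43350, 3343 and 4628 in interzone 2, phalange 2 and phalange 3, so it was lower in the blood-rich libraries within each tissue. *ENPP2*, the enzyme that makes lysophosphatidic acid, was at 17955 and 2959 in the blood-rich interzone libraries against 45670 in interzone 2. In phalange it went the other way, at 2073 against 599 and 818. *INHBB*, a subunit of activin, divided the libraries by tissue, at 323, 1347 and 184 in interzone 1 to 3 and at 0, 0 and 2.87 in phalange 1 to 3. *CCN3*, a matricellular protein, did likewise, at 407 to 869 in interzone and 57.9 to 90.9 in phalange.

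Some joint genes did stand apart between the sets. *LGR5*, a receptor for R-spondin, was at 945, 368 and 755 in interzone 1, interzone 3 and phalange 1 and at 38.2, 5.24 and 120 in the blood-poor libraries. *EBF2*, a transcription factor of mesenchyme, was at 400 to 726 against 57.4 to 91.2, and *OSR1*, expressed in irregular connective tissue of the chick limb, was at 1102 to 1332 against 497 to 922. *DCX*, which binds microtubules, was at 67.9 to 251 against 0 to 58.4, and *TPPP3*, also of microtubules and of tendon sheath, was at 17.0 to 49.9 against 0 to 8.26. With a blood-poor mean of 2.75, *TPPP3* passed the filter only through the blood-rich set. *SULF1*, which trims heparan sulfate, was lower in the blood-rich libraries, at 522 to 2612 against 5055 to 11615. *COL15A1*, named after its values were seen, was also below but by a very narrow gap, at 126 to 214.6 against 215.0 to 387. *SFRP2*, a secreted Wnt regulator, overlapped at 2766 to 9240 and 5990 to 8685.

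**Figure D4:**
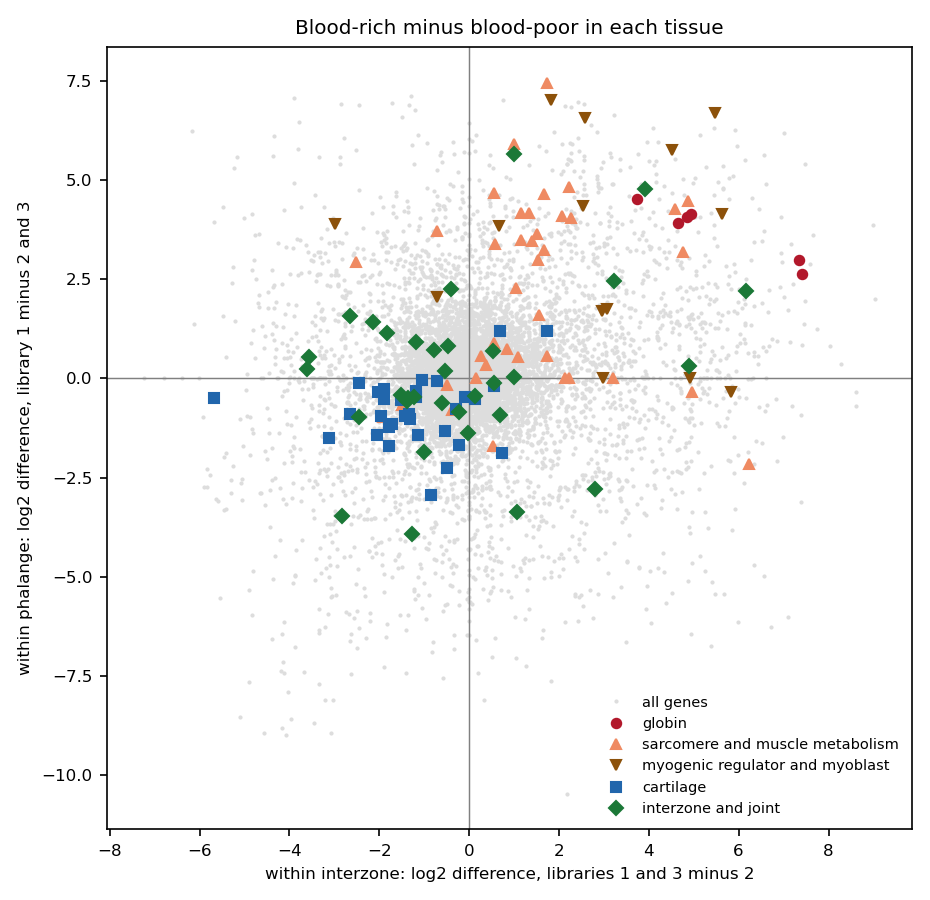
Log2 difference of the blood-rich minus the blood-poor libraries within phalange (vertical) against that within interzone (horizontal) for all 11928 genes (gray) and for 5 lists (colored symbols). Globin and most muscle genes lie at upper right, most cartilage genes at lower left, and joint genes on all sides.

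Over all genes the 2 tissues shared little of the split. The difference within interzone and that within phalange had a Pearson r of 0.14 across 11928 genes, and 53.7% had the same sign. Genes are not independent replicates, and no library enters both differences. Higher by more than 1 on the log2 scale in both tissues were 701 genes, and lower by as much in both were 459. In all, 1525 genes, 12.8%, did not overlap, 829 of them above and 696 below in the blood-rich libraries.

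Cell cycle genes were slightly but broadly higher. Of 27, 26 had a positive difference, beside 51.6% of all genes, 6 lay above without overlap and 0 below, and the median was 0.50, or 0.26 without interzone 2. *PCNA*, the sliding clamp of DNA replication, was at 6943 to 8195 against 4301 to 6280, and *CDK1*, the mitotic kinase, at 8468 to 10376 against 5381 to 7843. *CDC20*, which starts anaphase, overlapped. Glycolysis and hypoxia genes were lower, with 6 of 23 below without overlap, 0 above and a median of -0.30, or -0.18 without interzone 2. *GAPDH* was at 210747 to 254432 against 260776 to 373789 and *P4HA1*, which hydroxylates collagen, at 1622 to 1785 against 2536 to 2901. Immediate early and stress genes had a median of -0.06, and the abundant heat shock gene *HSPA8* was at 53177 to 57598 against 52556 to 63972. *DUSP1*, an early response phosphatase, was at 6151 in interzone 2 and at 649 to 917 in the other 5 libraries.

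Outside the lists, the widest gaps above included genes of limb mesenchyme. *LHX9*, a transcription factor of the limb bud, was at 127 to 545 in the blood-rich and 0 to 27.9 in the blood-poor libraries, and *TWIST2*, which holds mesenchyme undifferentiated, at 752 to 1245 against 65.0 to 199. Also among them were *CRABP1*, which binds retinoic acid, at 1870 to 4638 against 316 to 604, its relative *CRABP2*, at 355 to 753 against 99.1 to 146, and *ALDH1A3*, which makes retinoic acid, at 1045 to 1795 against 43.0 to 413. *TMEM132C*, *ADCY2*, *CLCN6*, *RNF111* and *LOC770492* completed the 10. The 10 widest gaps below were led by *SPON2*, a secreted matrix protein, at 1927 to 2940 against 12543 to 26126, and *SGK3*, a kinase, at 313 to 604 against 2453 to 2602. *FGFBP2*, at 999 to 4910 against 12063 to 17574, *EXFABP*, a lipocalin first described in chick cartilage, at 283 to 425 against 1507 to 1645, and the syndecan *SDC4*, at 258 to 587 against 1232 to 1414, were also among them. The others were *MBP*, *KCNK5*, *GLDC*, *PLA2G10L* and *NFATC2*.

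Leaving out the globins, the genes with a mean of at least 100 whose log2 values were most like those of *HBA1* over the 6 libraries had a Pearson r of 0.97 to 1.00, a description over 6 points that share their depth and set. They were *TMEM132C*, *WBP2NL*, *CENPK*, *TK1*, *RBM45*, *TRAPPC10*, *HDAC7*, *MRPS33*, *TBL1X* and *HOXA13*. Of these only *TMEM132C* spanned a range near that of the globins, with 198 to 219 in the blood-rich libraries, 5.16 in interzone 2, 2.10 in phalange 2 and 44.0 in phalange 3. *TMEM132C* and *TRAPPC10*, with blood-poor means of 17.1 and 50.0, passed the filter of 100 only through the blood-rich set. *TK1*, which makes thymidine phosphate, ran from 3379 to 5904 and *HOXA13*, of the distal limb, from 2119 to 4610.

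The tissue contrast does not depend on the split and was tested with limma, whose p-values measure only the spread between these libraries. It called 3 of 11928 genes, 0.0252%, all higher in phalange, and 771 genes, 6.46%, had an unadjusted p under 0.05. The number called depends on the tool, and DESeq2 called far more in each direction, as given in the last section. The paper, with DESeq2 at the same thresholds, also reported more genes for each tissue. It measured *GDF5*, *ENPP2* and *ERG* by RT-qPCR and reported them higher in interzone. *RUNX2*, which drives cartilage maturation and bone, was at 729, 631 and 653 in interzone 1 to 3 and at 2980, 4343 and 4234 in phalange 1 to 3, with a log2FC of -2.50 (SE 0.22) and a limma adjusted p of 0.0225. *SNAI1*, a repressor that the paper lists among chondrocyte markers, was at 1591 to 2668 and 8057 to 9587, with a log2FC of -2.11 (SE 0.22) and a limma adjusted p of 0.0335. *C1H2ORF40*, which encodes a secreted peptide, was at 1206 to 1330 and 3917 to 5966, also with a limma adjusted p of 0.0335. These 3 genes are members of the cartilage list and overlapped between the blood sets.

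With the blood set added as a term of the model, limma called 11 genes with a higher level in interzone and 5 with a higher level in phalange. The set was defined from the same libraries and is uneven over the tissues. This fit therefore describes how much of the spread within tissues the split takes up, and its adjusted p-values carry no test. *MATN1*, a matrilin of cartilage, was at 1045, 1780 and 623 in interzone 1 to 3 and at 6418, 18820 and 15769 in phalange 1 to 3, and its limma adjusted p went from 0.0695 to 0.0144. *EPYC*, a proteoglycan of cartilage, was at 42.0 to 284 and 2694 to 6257, and its limma adjusted p went from 0.0695 to 0.0247. *GDF5* went from 0.119 to 0.0229 by the same test and *INHBB* from 0.0695 to 0.0368. *CCN3* went from 0.0997 to 0.0490. Others went the other way: the limma adjusted p of *DACT2* rose from 0.249 to 0.266. The SE of *RUNX2*, *SNAI1*, *BMP2* and *ENPP2* rose. *HBA1* and *HBAD* were used by, or move with, the rule, so for them above all the second fit carries no test. The median tissue difference of the cartilage list was -1.46 among blood-rich and -0.71 among blood-poor libraries, and that of the joint list 0.55 and 0.64.

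**Figure D5:**
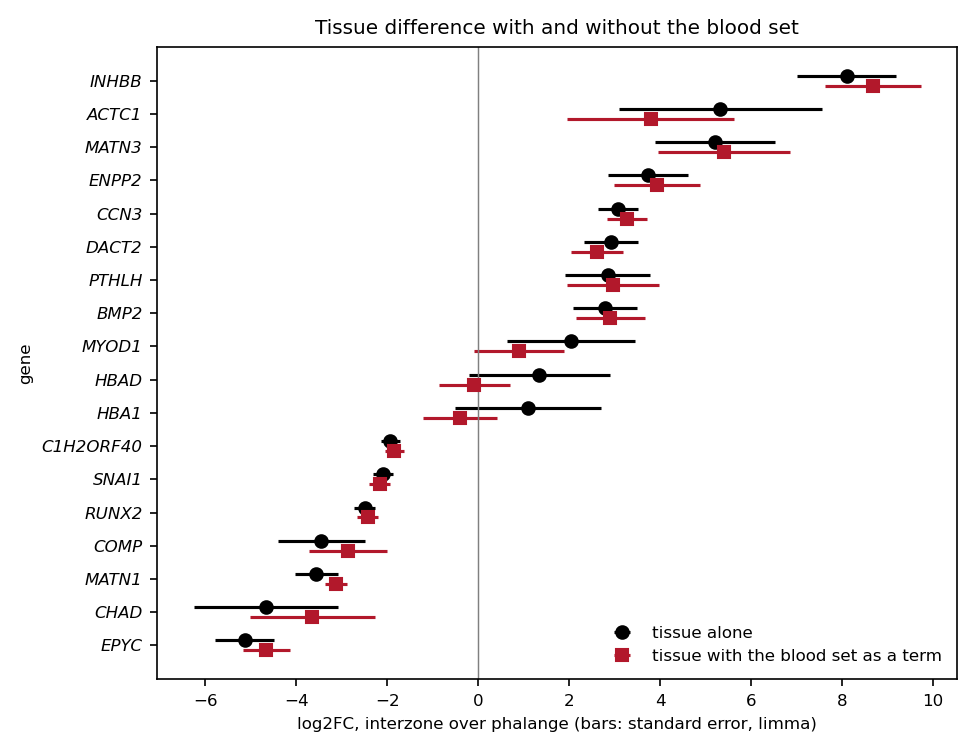
Log2FC of interzone over phalange from limma for 18 genes, with bars for the standard error, for tissue alone (circles) and with the blood set as a term (squares). MATN1 and EPYC have shorter bars with the set as a term, RUNX2, SNAI1 and C1H2ORF40 stay near -2, and HBA1 and HBAD move across 0.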

How the data were processed

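The values used are those of 6 RNA-seq libraries, 3 of interzone and 3 of phalange. The authors used Trimmomatic for adapters, STAR for mapping (*Gallus gallus* 6.0) and featureCounts on Ensembl genes, and deposited read counts divided by a DESeq2 size factor, a normalized signal. Each library's values were whole multiples of 1 step (100% within 1e-06), so reads were recovered, 12431285 to 14347148 per library. PCR copies count as reads. ChIP-seq peak lists were not used here.

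Libraries were split at an *HBA1* level of 20000. Members and the 16 gene lists (472 symbols) were chosen with earlier results of these data known. Named genes were the 4 markers, up to 6 list members with the widest gap between sets and 3 with the highest mean, the 10 widest gaps in each direction outside the lists and the 10 genes most like *HBA1* (mean at least 100), and the cartilage and joint genes with the largest tissue log2FC (6 per list) or a call. Some of these genes are not reported here. Of 12026 symbols, 11720 matched RefSeq GRCg7b, used only for chromosomes. Sequences are not given.

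Tissues were compared on log2(value + 1) with limma 3.58.1 (trend, Benjamini-Hochberg over 11928 genes with a mean of at least 10), called at an adjusted p under 0.05 and a log2FC beyond 0.5. Alternatives were edgeR 4.0.16 and DESeq2 1.42.0 on recovered reads, other scalings, filters and a pseudocount of 10, a replicate block, the blood set as a term, and each library left out. The scripts were tested on simulated data.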

Additional observations from a re-analysis of the deposited data

Results flagged for a closer look

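Over all 11928 genes, 2308 (19.3%) had blood-rich libraries that all moved one way from the blood-poor libraries of interzone and the opposite way in phalange. Among the 140 genes chosen by the rule for named genes there were 10, and the difference between tissues was not tested for any of them. Genes without overlap, 96 of the 140, cannot move in opposite ways in the tissues. Over all genes, 10403 overlapped, and only these could be among the 2308. *ENPP2* differed by -4.21 on the log2 scale, being -2.65 within interzone and 1.57 within phalange. *BMP2*, a growth factor of the joint and of cartilage, differed by -3.58, from -2.14 and 1.44, and was at 1631 and 648 in interzone 1 and interzone 3 against 4546 in interzone 2, and at 476 in phalange 1 against 128 and 240 in phalange 2 and phalange 3. *DACT2*, a modulator of Wnt and TGF-β signals, differed by -2.67, from -0.41 and 2.26. *MITF*, of pigment cells, differed by -1.83, from -1.02 and 0.81, and the epithelial genes *GRHL3* and *CDH1* by -1.60 and -1.50. *FLI1*, of thrombocytes and vessels, differed by -1.53, from -0.26 and 1.27. In the other direction *SNAI1* differed by 0.75, from 0.55 and -0.20, *RUNX2* by 0.65, from 0.13 and -0.52, and *COL5A1*, of fibrous collagen, by 0.63, from 0.35 and -0.28. Each within-tissue value rests on 1 library against 2.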

How the results depend on the processing

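The tissue calls moved with the tool and the libraries. Against 0 genes higher in interzone and 3 in phalange, edgeR called 0 and 1, DESeq2 104 and 48, limma with a pseudocount of 10 called 1 and 5, with a mean of at least 50 it called 2 and 5, and with the blood set as a term 11 and 5. Leaving out each replicate in turn gave 0 to 6 in interzone and 0 to 5 in phalange. Without phalange 1 there were 6 and 5 calls, without interzone 2 there were 0 and 5, and without any other library there were 0. Replicate numbers are shared between tissues, and W-linked sums matched by number. They were 31.3 and 29.9 in replicate 1 of interzone and phalange, and 6585 to 8378 in the other libraries. The deviations of same-numbered libraries had r of 0.19, 0.08 and -0.02, and 0.19 was the highest over all pairings of the tissues. Whether same-numbered libraries came from the same embryos was not tested. The main test treats the libraries as unpaired. With replicate as a block limma called 0 and 1 genes, the 1 being *EPYC*.

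Genes without overlap numbered 829 above and 696 below, and leaving out each replicate in turn gave 1291 to 1541 and 1123 to 1414, as fewer values are left to overlap. The erythroid median of 0.51 was 0.69 with no filter, 0.27 with a mean of at least 50, 0.34 with a pseudocount of 10 and 0.25 to 0.70 without 1 library. The myogenic median of 3.07 was 2.22, 2.05 and 1.63 under the first 3 of these, and the sarcomere median of 2.69 was 1.56 with a pseudocount of 10. In an alternative chosen after seeing the data, interzone 3 alone, which has W-linked reads like the blood-poor libraries, was set against them, 1 of interzone and 2 of phalange, so that tissue differs too. The myogenic median was then 2.27 and the cartilage median -2.14, while the macrophage and white blood cell median reversed from 0.70 to -0.11. Against interzone 2 alone, of its own tissue, the medians were 1.21 (9 of 14 genes higher) and -1.56. The tissue log2FC of *HBA1*, 1.09, reversed to -0.40 with the set as a term and ran from -0.49 (without phalange 2) to 2.70 (without interzone 2) with 1 library left out, and that of *HBAD*, 1.34, reversed to -0.087 and ran from -0.17 to 2.90 without the same libraries. Under 3 other scalings all 96 named genes without overlap kept their sign, and 93 to 96 still did not overlap. Many of them were chosen for a wide gap, so this says nothing about the other genes without overlap. The causes were not tested. Genes near 0 are limited by depth.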
